A study of Mus musculus with 12 samples.

Results

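The genes described here are 52 mouse genes of the DNA damage response and of DNA repair, found by their symbols in the m6A peak lists of 3 dendritic cell (DC) types. Of these, 40 had at least 1 peak in a list, among 9142 transcripts with a peak in any list. N6-methyladenosine (m6A) is a methyl mark on adenosines of mRNA. It was mapped by meRIP-seq, in which RNA fragments pulled down by an antibody to m6A (IP) are sequenced beside the unselected fragments (input). There were 2 replicates of each DC type, each with an IP and an input library, 12 libraries in all.

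All 3 DC types came from bone marrow of C57BL/6 mice aged 6 weeks, grown with GM-CSF at 10 ng/ml and IL-4 at 1 ng/ml and selected on CD11c beads, with the marrow of many mice pooled. Immature DC (imDC) received no further agent, mature DC (maDC) were given LPS for 24 h at 100 ng/ml, and regulatory DC (DCreg) were maDC kept in co-culture with endothelial cells of the spleen for 7 days. No allele was changed in these mice. The labels and the study's methods differ on the library kit, since the methods name NEBNext Ultra alone. The labels name a TruSeq kit for the first imDC and the first maDC replicate and NEBNext Ultra for all others. By the labels both DCreg replicates are therefore NEBNext Ultra, and kit is partly confounded with DC type.

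Cells answer breaks and stalled forks through sensor complexes and kinases that halt the cell cycle and call in repair enzymes. Breaks are then mended by homologous recombination or by end joining, while damaged or mispaired bases are cut out by base excision, mismatch or nucleotide excision repair. On mRNA, m6A is set by a METTL3-containing enzyme mostly in the sequence context RRACH (R is A or G, H is any base but G), near stop codons and in long internal exons, and is read by YTH-domain proteins that change the stability and translation of the transcript.

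In each list a peak is a stretch of the transcript where the log2 enrichment of IP over input, set against the median window of the same transcript, was at least 1 in both replicates. The repair genes had 29 peaks in 20 genes in imDC, 71 peaks in 32 genes in maDC and 69 peaks in 34 genes in DCreg. Thus 20, 32 and 34 of the 52 genes were listed, where 28.2%, 37.5% and 31.1% of all protein-coding RefSeq genes were listed in imDC, maDC and DCreg. Peaks were called on both replicates together, so the presence of a peak has no replicate error of its own. A transcript that was rare in a DC type and one that carried little m6A there cannot be told apart, because the lists hold no expression level and the read depth is unknown. The transcripts of the 40 listed genes had a median length of 4104 nt, against 3184 nt over all coding transcripts in the lists. The 12 genes with no peak in any list were Atr, Brca2, Chek2, Fancd2, Fanci, Lig4, Ogg1, Prkdc, Rad18, Rad54l, Trp53 and Xrcc5, and their longest transcripts had a median of 3572 nt.

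The sites behind the strongest repair gene peaks that hold the motif GGACT were in coding exons. The 4 genes shown are those with the highest lower replicate value among such peaks, with 11 bases to each side of GGACT, which is in capitals. Sequences are those of the RefSeq transcripts on GRCm38 and read 5′ to 3′ with T for U.
Mdc1: gcacatctgcaGGACTgcctagctggt
Fancm, first site: agaagagctgaGGACTgacggacagac
Fancm, second site: tgcatctgataGGACTcgcaccctggg
Blm: gcggagggggcGGACTgcctgagcagg
Rev1: tgaaagcaaatGGACTgagcagctgga
The Mdc1 site lies in exon 5 of 16 (chr17:35847780-35847806, plus strand), an exon of 1343 nt. Both Fancm sites lie in exon 14 of 23, of 1864 nt (chr12:65106362-65106388 and chr12:65106476-65106502, plus strand). The Blm site lies in exon 3 of 22, of 716 nt (chr7:80512879-80512905, minus strand), and the Rev1 site in exon 6 of 23, of 704 nt (chr1:38088610-38088636, minus strand). All 5 stretches were thus in internal coding exons of 704 nt or more. The listed places of the Fancm and Rev1 sites were 3 and 4 bases before those in the reference transcript used here.

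Presence of a peak differed among the DC types for 22 of the 40 listed genes, as the plot of peaks per gene shows. In all 3 DC types 18 genes had a peak, 45.0% of the listed repair genes, where 50.2% of all listed transcripts did. A further 8 genes had a peak in maDC and DCreg and none in imDC (all transcripts, 13.7%). DCreg alone had 7 (6.71%) and maDC alone had 5 (13.5%), while no gene was listed in imDC alone (3.02%). Atrip was listed in imDC and maDC and not in DCreg (10.6%), and Fancm in imDC and DCreg and not in maDC (2.22%).

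**Figure D1:**
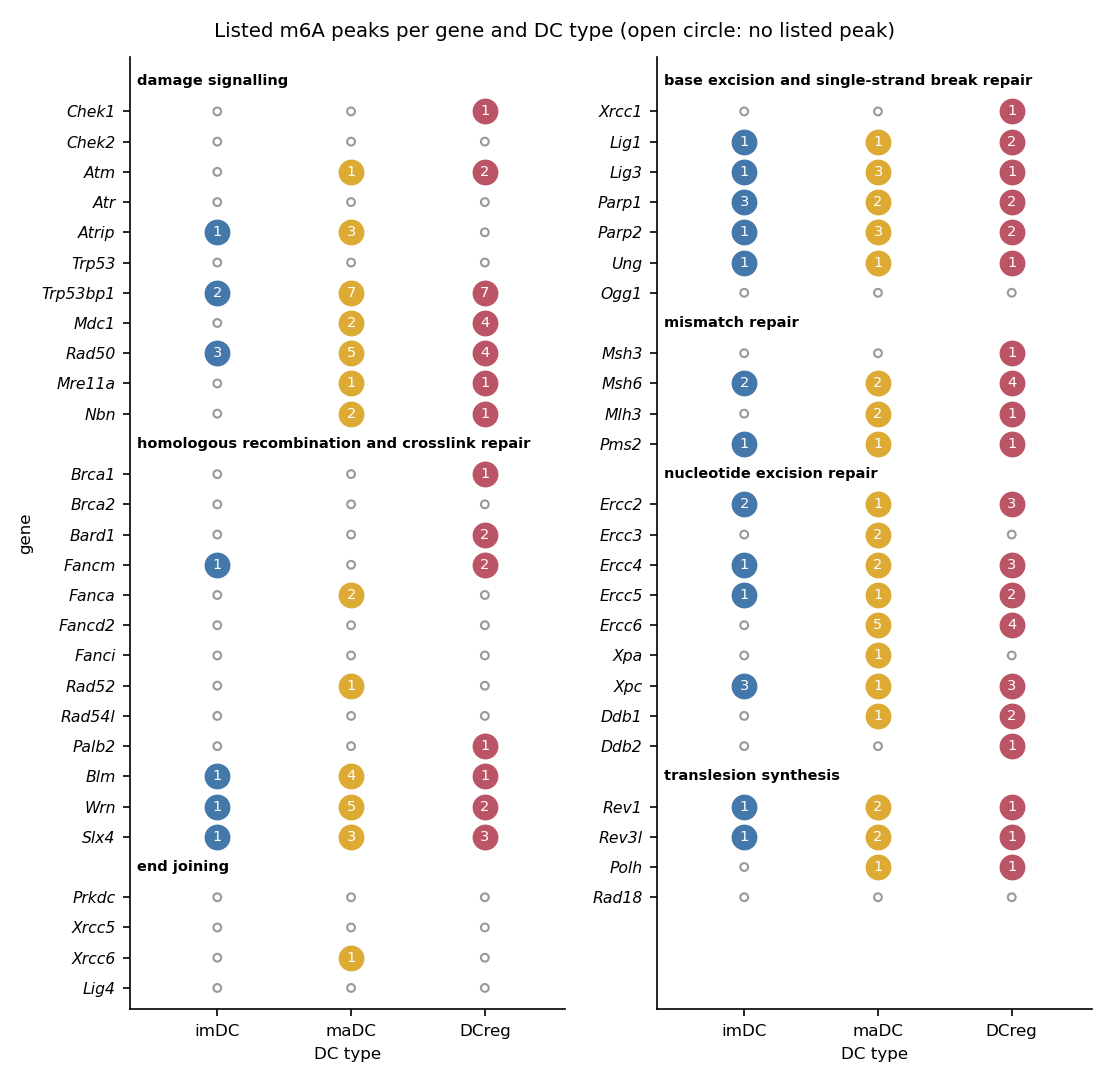
Number of listed m6A peaks of each of the 52 genes (rows, by role) in imDC, maDC and DCreg (columns), where an open circle marks a gene with no listed peak. Trp53bp1 had the most peaks, 7 in maDC and 7 in DCreg, and the column of imDC has the fewest filled circles, 20.

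The 7 genes listed in DCreg alone included 3 that act in 1 complex. Brca1 and Bard1 form the ubiquitin ligase that directs breaks towards recombination, and Palb2 joins Brca1 to Brca2. Bard1 had 2 peaks in its last exon, in the 3′UTR, with log2 enrichments of 2.81 and 4.23 at 3278–3433 nt and of 1.87 and 4.44 at 4394–4550 nt (replicates 1 and 2). The Palb2 peak reached 3.30 and 1.81 and that of Brca1 1.61 and 1.22. The Bard1 peaks were the strongest of these, and their replicates were far apart.

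The other genes listed in DCreg alone came from different pathways. Chek1, the checkpoint kinase downstream of Atr, had a peak over its start codon with 2.12 and 2.53. Msh3, a mismatch recognition subunit, had 1 peak. Xrcc1, the scaffold of single-strand break repair, had 1.30 and 1.02, and Ddb2, which recognises UV lesions, had 1.36 and 1.17. In 4 of the 7 genes (Brca1, Xrcc1, Msh3 and Ddb2) the lower replicate value was under 1.5, close to the list's minimum of 1.

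Genes listed in maDC alone were Fanca, Rad52, Xrcc6, Ercc3 and Xpa. Ercc3, the TFIIH helicase that opens DNA around a lesion, had 2 peaks, of 2.86 and 2.91 over its start codon and of 2.27 and 1.83 at its stop codon. Xpa, which checks the lesion, had 2.54 and 2.0, and Rad52, a strand-annealing protein, had 1.53 and 2.03. Xrcc6, the Ku70 subunit of the end-joining complex, had 1.32 and 1.30. Fanca, of the Fanconi anaemia core complex, had 1.92 and 2.32 and, in a second peak, 1.15 and 1.17, both over exons of Zfp276 on the opposite strand.

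The 8 genes listed in maDC and DCreg and not in imDC were Atm, Mdc1, Mre11a and Nbn of damage signalling, Mlh3 of mismatch repair, Ercc6 and Ddb1 of nucleotide excision repair and Polh of translesion synthesis. Atm, the kinase activated by double-strand breaks, had a peak near its stop codon with 3.88 and 2.77 in DCreg and 2.21 and 2.52 in maDC. For Mdc1, the adaptor that binds phosphorylated H2AX, a region of exon 5 had 3.45 and 3.76 in DCreg and 2.33 and 3.61 in maDC. Mre11a was listed at different places, with 2.74 and 1.81 in the CDS in DCreg and 1.09 and 1.87 at the stop codon in maDC.

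Markers of other cells were checked in the same lists. Of all protein-coding genes, 28.2%, 37.5% and 31.1% had a peak in imDC, maDC and DCreg. Of 16 endothelial and stromal markers, 1 had a peak in imDC, 4 in maDC and 5 in DCreg. Col1a1, Col1a2 and Col3a1 were listed in DCreg alone, Kdr and Vwf in maDC and DCreg, Pecam1 in maDC alone and Eng in imDC and maDC. The other 9, the defining endothelial genes Cdh5 and Tek among them, had no peak. Of 18 DC markers, 14 had a peak in imDC, 16 in maDC and 9 in DCreg, with Itgax (CD11c) listed in all 3. Flt3, Zbtb46, H2-Ab1, Cd40 and Fscn1 were listed in imDC and maDC and not in DCreg, and Cd74 and H2-Eb1 in maDC alone. Of 12 macrophage markers, 5 had a peak in imDC, 8 in maDC and 9 in DCreg. Mrc1 and C1qa were listed in DCreg alone and Fcgr1 in maDC alone, while C1qb and Marco had no peak. Of 9 neutrophil markers, 3, 3 and 2 had a peak in imDC, maDC and DCreg, with Elane and Mpo listed in imDC alone. Of 20 proliferation genes, 11, 12 and 13 had a peak in imDC, maDC and DCreg, and none of 11 lymphocyte markers had one. The part of these differences in the repair gene lists was not tested.

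By role, the genes of nucleotide excision and mismatch repair were all listed in some DC type, and end joining had the fewest listed. All 9 nucleotide excision repair genes had a peak in some DC type (4 in imDC, 8 in maDC and 7 in DCreg), as did all 4 mismatch repair genes (2, 3 and 4). Damage signalling had 3, 7 and 7 of 11 genes in imDC, maDC and DCreg, and homologous recombination and crosslink repair 4, 5 and 7 of 13. Base excision and single-strand break repair varied least, with 5, 5 and 6 of 7 genes. Translesion synthesis had 2, 3 and 3 of 4, and of the 4 end-joining genes only Xrcc6 had a peak. Of all protein-coding genes, 28.2%, 37.5% and 31.1% had a peak in imDC, maDC and DCreg. A share with a peak in any DC type is not given for them. The groups hold 4 to 13 genes each, and differences between roles were not tested. Ercc2, of nucleotide excision repair, had peaks only over exons of Klc3 on the opposite strand.

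A second list of 106 other DNA repair genes was counted in the same way. Of these, 46 had a peak in imDC (43.4%), 64 in maDC (60.4%) and 53 in DCreg (50%), where 28.2%, 37.5% and 31.1% of all protein-coding genes did. In all 3 DC types 34 of the 74 with any peak were listed (45.9%, all transcripts 50.2%), among them Mdm2, Mdm4 and Cdkn1a of the p53 circuit and H2afx, the histone marked at breaks. DCreg alone had 7 (9.46%, all transcripts 6.71%), among them Brip1 and Topbp1. There were 11 in maDC alone (14.9%, 13.5%) and 10 in maDC and DCreg without imDC (13.5%, 13.7%), shares near those of all transcripts. Brip1 is a helicase bound by Brca1, and Topbp1 activates Atr.

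The number of peaks per gene ranged up to 7. Trp53bp1, which steers breaks towards end joining, had 2 peaks in imDC and 7 in each of maDC and DCreg. Rad50, the ATPase of the Mre11 complex, had 3, 5 and 4 peaks in imDC, maDC and DCreg. Wrn, a RecQ helicase, had 1, 5 and 2, and Ercc6, the chromatin remodeller of transcription-coupled repair, had 0, 5 and 4.

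Peaks recurred at the same places along a transcript in different DC types, as the maps of peak positions show. In Trp53bp1 each of the 7 maDC peaks overlapped a DCreg peak, and 4 of them were in exon 12, an exon of 1297 nt. The last of the 7, in the 3′UTR, lay over an exon of Tubgcp4 on the opposite strand in both maDC and DCreg. The Trp53bp1 peak in exon 17 (chr2:121215693-121216039 in maDC) had 1.77 and 2.63 in imDC, 2.42 and 3.85 in maDC and 2.90 and 2.56 in DCreg. Slx4, the scaffold of structure-specific nucleases, had 3 peaks at like places in maDC and DCreg, of which only the last was listed in imDC. Peaks of different DC types were paired if they overlapped by at least 50% of the shorter, each peak used once per comparison. Across all repair genes, 27 of 29 imDC peaks, 41 of 71 maDC peaks and 43 of 69 DCreg peaks were paired with a peak of another DC type. Peaks that overlapped only an already paired peak are not in these counts, such as that of Xpc at 1601–1735 nt in DCreg.

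**Figure D2:**
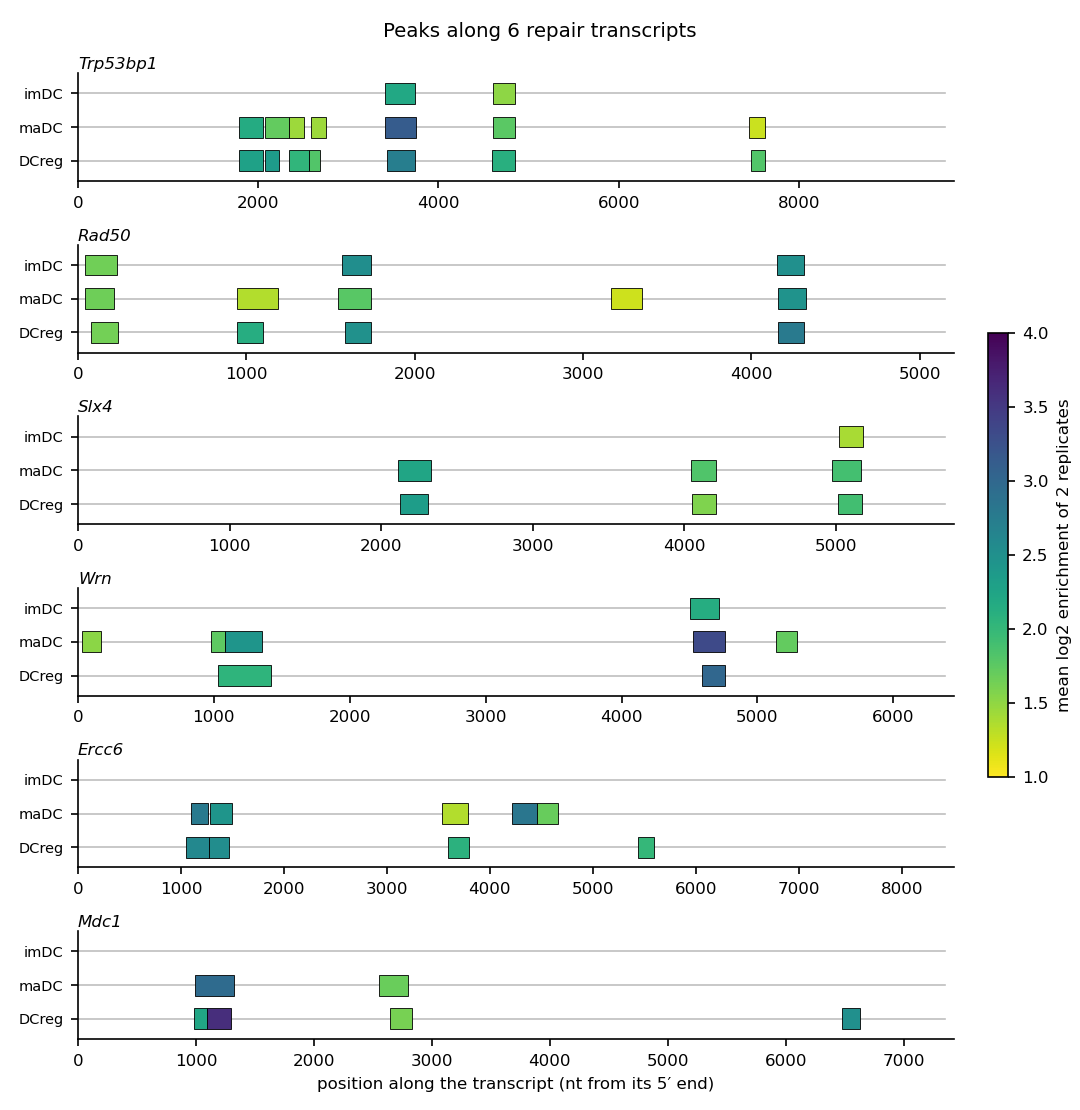
Listed peaks (boxes) along the transcripts of Trp53bp1, Rad50, Slx4, Wrn, Ercc6 and Mdc1 in nt from the 5′ end (x axis) in imDC, maDC and DCreg (rows), coloured by the mean log2 enrichment of 2 replicates. Boxes of maDC and DCreg stand above each other for Trp53bp1, where imDC has 2 of the 7.

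The repair gene peaks lay in coding sequence more often than peaks in general. In imDC 18 of 29 were listed in the CDS (62.1%, exact 95% interval 42.3 to 79.3), against 37.3% of all peaks. In maDC 48 of 71 were (67.6%, 55.5 to 78.2), against 38.1%, and in DCreg 49 of 69 (71.0%, 58.8 to 81.3), against 47.1%. These intervals cover the counting of peaks only, and peaks of 1 gene share a transcript. The CDS made up a median of 80.0% of the transcript in the 40 listed repair genes and 51.8% over all listed coding transcripts, so a larger CDS went along with the larger share, and its part in it was not tested. At the stop codon were 1 of 29, 9 of 71 and 1 of 69 repair gene peaks in imDC, maDC and DCreg, where 12.4%, 14.7% and 11.7% of all peaks were.

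**Figure D3:**
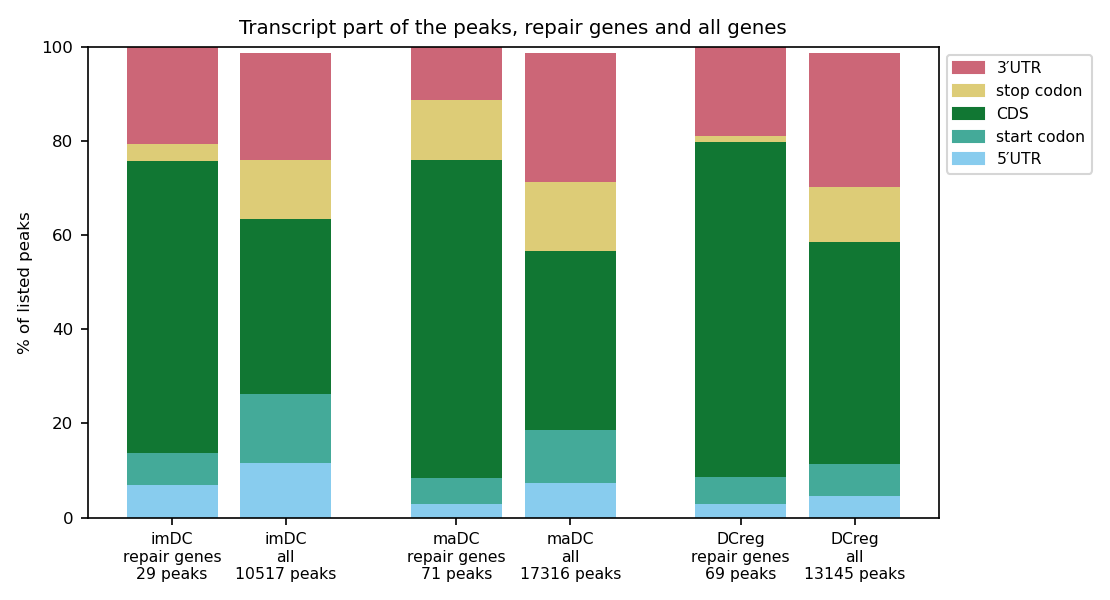
Share of listed peaks (y axis, %) in each part of the transcript for the repair genes and for all genes in imDC, maDC and DCreg; bars under 100% leave out peaks with no listed part among these 5. The CDS takes 62.1%, 67.6% and 71.0% of the repair gene peaks, more than in the bar of all genes beside each.

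Most of these coding peaks fell in long internal exons. Among peaks centred in the CDS of transcripts that matched the reference, 12 of 14 in imDC (85.7%) lay in an exon of at least 400 nt that was neither first nor last, against 26.2% over all genes. The counts were 34 of 48 in maDC (70.8%, against 27.6%) and 34 of 45 in DCreg (75.6%, against 24.2%). They came from 26 exons of 20 genes, among them the exons of 4153 nt in Rev3l (catalytic subunit of polymerase zeta), 3323 nt in Mlh3, 3315 nt in Brca1 and 2536 nt in Msh6. Msh6, a mismatch recognition subunit, had all its 8 peaks in that exon. The Brca1 exon, though the third longest of them, had 1 peak of 121 nt, in DCreg. Exon length was not used to choose the genes, and several peaks of a gene share an exon, so no test was made. How much of the CDS of these genes lies in such exons is not given here, and its part in the larger share was not tested.

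The motif GGACT was listed in 11 of 29 repair gene peaks in imDC (37.9%, exact 95% interval 20.7 to 57.7). In maDC the count was 23 of 71 (32.4%, 21.8 to 44.5), and in DCreg it was 14 of 69 (20.3%, 11.6 to 31.7). All peaks had it in 31.4%, 33.1% and 28.0%, within these intervals. The shorter core GGAC, which includes GGACT, was searched on the transcript strand only, in transcripts that matched the reference. It was in 20 of 24 repair gene peaks in imDC (83.3%), 46 of 64 in maDC (71.9%) and 39 of 61 in DCreg (63.9%). Of all peaks searched, 70.7%, 70.1% and 64.0% had it in imDC, maDC and DCreg. No GGACT was listed in the strongest DCreg peak, that of Ercc4.

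The strongest peaks, ranked by the lower replicate value, differed in part between DC types, with Ercc2 leading in imDC and in maDC and Parp1 and Fancm among the first 5 in imDC and in DCreg. In imDC Ercc2, a TFIIH helicase that unwinds DNA at a lesion, led with 2.94 and 3.72. It stood before Parp1 (2.65 and 2.77), Rad50 (2.39 and 2.61), Ung (2.26 and 3.07) and Fancm (2.20 and 2.62). Ung removes uracil from DNA, and Fancm is the fork translocase of the Fanconi pathway. In maDC Ercc2 led again with 3.52 and 4.05, and Rev1 (2.88 and 2.89), Ercc3 (2.86 and 2.91), Lig3 (2.82 and 3.69) and Wrn (2.68 and 3.98) followed.

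The DCreg list held the highest values of the 3. Ercc4, the nuclease that cuts 5′ of a lesion, had 4.07 and 4.17 in exon 8 (chr16:13130136-13130292), ahead of the Mdc1 peak above. Parp2 had 3.37 and 4.01, Fancm 3.78 and 3.15 and Parp1 3.59 and 3.13. Parp1 and Parp2 make poly(ADP-ribose) at breaks. The 6 peaks of Ercc2 in the 3 lists all lay in its 3′UTR over exons of Klc3 on the opposite strand. The sources used here do not say whether the libraries keep strand, so reads of Ercc2 and Klc3 cannot be told apart. Such overlaps with another coding gene touched 11 of the 142 repair gene peaks that could be placed on the genome. These were peaks of Ercc2, Fanca, Msh3 and Trp53bp1. The peaks of Parp1, Parp2, Lig1, Polh, Xrcc1, Fancm and Rev1 were not checked for such overlaps.

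Replicates of the repair gene peaks were farther apart than those of peaks in general. The median absolute difference between replicates was 0.69, 0.53 and 0.79 in imDC, maDC and DCreg for repair genes, and 0.56, 0.44 and 0.59 for all peaks. The direction of this difference was uneven. In imDC replicate 1 was the higher in 5 of 29 repair gene peaks (17.2%, all peaks 45.4%), in maDC in 27 of 71 (38.0%, 38.1%) and in DCreg in 49 of 69 (71.0%, 58.4%). The median of the replicate means was 2.12, 2.03 and 2.22 for repair genes and 1.97, 2.01 and 2.12 for all peaks in imDC, maDC and DCreg, and this difference was not tested.

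In 21 repair gene peaks of 17 genes all 3 DC types could be set side by side. Both DCreg values lay above all imDC and maDC values in the peaks of Ercc4, Parp2, Parp1 (CDS) and Lig1. Lig1, the ligase of long-patch repair and replication, had 2.04 and 2.42 in imDC, 2.16 and 2.35 in maDC and 2.82 and 3.81 in DCreg. The CDS peak of Parp1 had 1.79 and 2.46 in imDC, 2.47 and 3.01 in maDC and 3.59 and 3.13 in DCreg. In contrast, the peak over the Parp1 start codon had 2.65 and 2.77 in imDC, 2.23 and 3.00 in maDC and 1.59 and 2.86 in DCreg, and the 3 types overlapped. The weakest of the 21 means in DCreg were those of Msh6 and of the 5′UTR peak of Rad50.

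**Figure D4:**
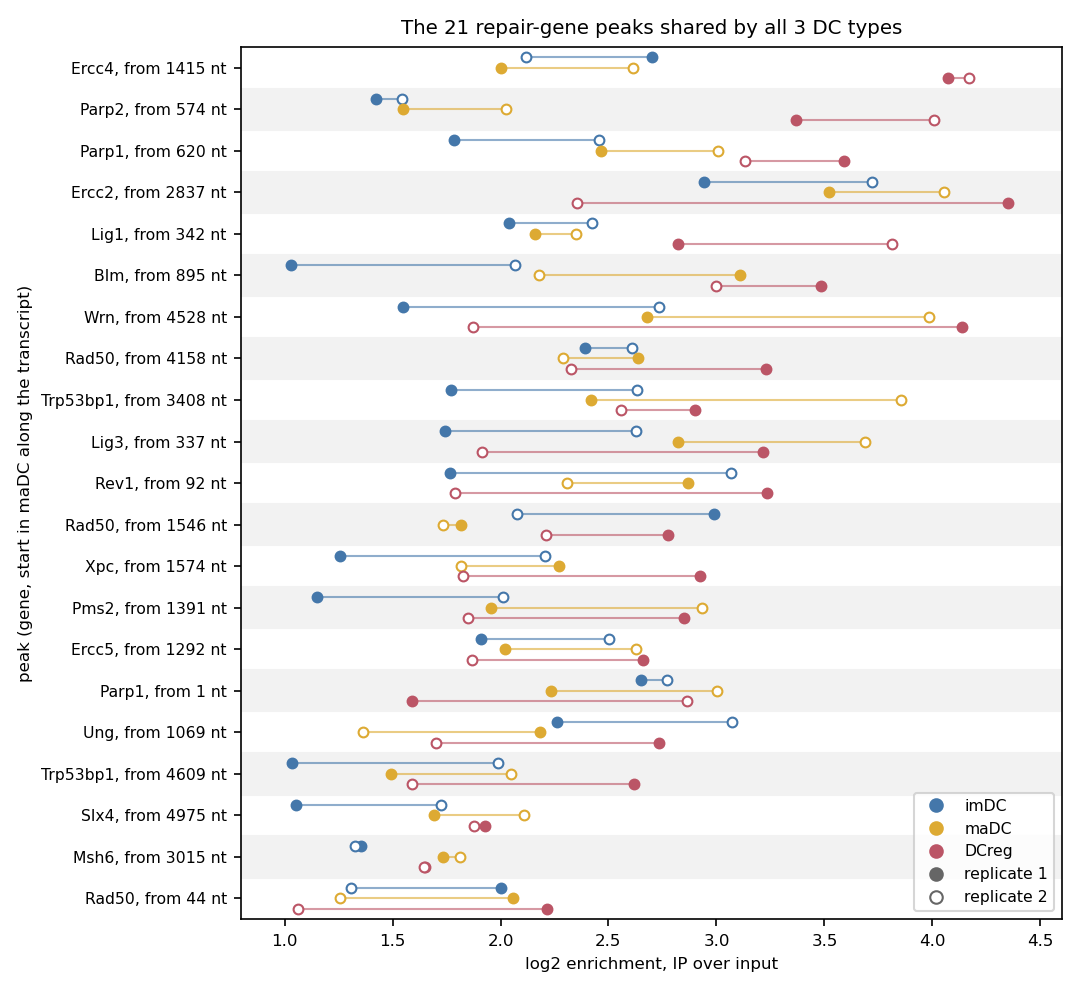
Log2 enrichment (x axis, IP over input) of the 21 repair gene peaks shared by all 3 DC types (rows, ordered by the DCreg mean), with replicate 1 filled, replicate 2 open and a line between them. For Ercc4 and Parp2 both DCreg points, at 3.37 to 4.17, lie right of all imDC and maDC points.

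For maDC against imDC, which asks what LPS maturation changed, 23 shared peaks of 19 repair genes were tested by limma together with all 8306 shared peaks. None of the 23 passed an adjusted p of 0.05 (all shared peaks, 0.0%), and 1 had an unadjusted p under 0.05 (all peaks, 3.54%). Atrip, which brings Atr to single-stranded DNA, was that peak, with 2.50 and 3.79 in maDC and 1.20 and 2.41 in imDC, a difference of 1.34 ± 0.68 (SE; limma adjusted p = 0.982). With 1 replicate left out it ran between 0.70 (without replicate 2 of maDC) and 1.99 (without replicate 1 of maDC). Both maDC values lay above both imDC values in 6 of 23 peaks (23.6% of all) and below them in 2 (7.46%). The study calls the replicates biological, but the sources used here do not say which pool of mice each came from. The p-values therefore measure the spread between these samples, taken over all shared peaks. The SE of a peak was set by the trend of that spread with enrichment, and its own replicates hardly entered.

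Next in size were Wrn, with 2.68 and 3.98 in maDC and 1.55 and 2.74 in imDC, a difference of 1.19 ± 0.68, and Blm, the Bloom helicase, with 3.11 and 2.18 in maDC and 1.03 and 2.06 in imDC, a difference of 1.10 ± 0.63. The limma adjusted p was 0.982 for both. With 1 replicate left out the Wrn difference lay between 0.54 (without replicate 2 of maDC) and 1.84 (without replicate 1 of maDC), and that of Blm between 0.58 (without replicate 1 of imDC) and 1.61 (without replicate 2 of imDC). The most negative differences, in the peaks of Ung (−0.90 ± 0.66), Rad50 at exon 9 (−0.76 ± 0.65) and Ercc4 (−0.10 ± 0.67), had adjusted p of 0.982, 0.982 and 0.999. The median half-width of the unadjusted 95% interval was 1.30, so smaller differences mostly could not be told from 0 even before adjustment. Larger ones could still fail after adjustment over 8306 peaks, as that of Atrip (1.34) did.

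The labels, unlike the methods, give replicate 1 of both types as TruSeq and replicate 2 as NEBNext Ultra. The columns of values give a replicate number and no sample name. If they follow the labels, which was assumed here and not settled, maDC and imDC can be compared within a kit. The maDC value was higher in both pairs in 14 of 23 peaks (37.1% of all shared peaks) and lower in both in 2 (12.1%). The Atrip difference was 1.30 in the TruSeq pair and 1.38 in the NEBNext Ultra pair, that of Wrn 1.13 and 1.25, that of Lig3 1.08 and 1.06 and that of Pms2, a mismatch repair endonuclease subunit, 0.80 and 0.92. For Blm the pairs gave 2.08 and 0.11. With the pairs as a block in limma none of the 23 passed either (Atrip, adjusted p = 0.999).

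For DCreg against maDC, 39 shared peaks of 22 repair genes were tested among 8485. None passed, where 22 of all passed, each higher in DCreg (0.259%), and 2 of the 39 had an unadjusted p under 0.05 (all peaks, 7.11%). The 2 were Parp2, with 3.37 and 4.01 in DCreg and 1.55 and 2.03 in maDC (difference 1.90 ± 0.70, 95% interval 0.53 to 3.27), and Ercc4, with 4.07 and 4.17 in DCreg and 2.0 and 2.61 in maDC (1.81 ± 0.72, 0.39 to 3.23). Their limma adjusted p were 0.436 and 0.527. As for maDC against imDC, the SE of each peak came from the trend over all shared peaks. Without replicate 1 of maDC the differences of Parp2 and Ercc4 were 1.66 and 1.51. This leaves NEBNext Ultra libraries alone if the columns follow the labels.

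Lig1 had the next largest difference of DCreg from maDC, 1.06 ± 0.70. The most negative differences were those of Lig3 (−0.69 ± 0.71), with 3.22 and 1.92 in DCreg and 2.82 and 3.69 in maDC, Ercc2 (−0.44 ± 0.73) and Trp53bp1 in exon 17 (−0.41 ± 0.71), and the replicates of DCreg and maDC overlapped in each. Lig3 joins single-strand breaks with Xrcc1. Both DCreg values were above both maDC values in 10 of 39 peaks (21.6% of all) and below them in 1 (14.6%).

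For DCreg against imDC, 25 shared peaks of 18 repair genes were tested among 6124, and 0 of the 25 passed limma (all shared peaks, 0.0%), while 3 had an unadjusted p under 0.05 (all peaks, 6.3%). Parp2 had 3.37 and 4.01 in DCreg and 1.42 and 1.54 in imDC (difference 2.21 ± 0.71, 95% interval 0.75 to 3.67). Ercc4 had 4.07 and 4.17 in DCreg and 2.70 and 2.12 in imDC (1.71 ± 0.75), and Blm 3.49 and 3.00 in DCreg and 1.03 and 2.06 in imDC (1.70 ± 0.71). The limma adjusted p was 0.777 for all 3. In this fit the SE of each peak drew mostly on the trend over all shared peaks. The most negative differences were −0.83 ± 0.65 for Ercc2 (first of its DCreg peaks), −0.48 ± 0.72 for Parp1 at its start codon and −0.45 ± 0.72 for Ung. Both DCreg values were above both imDC values in 9 of 25 peaks (30.2% of all) and below them in 0 (7.17%). DCreg values enter both of the last comparisons, so Parp2 and Ercc4 in them are not independent.

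The lists themselves were shifted between DC types. The median difference over all shared peaks was 0.21 for maDC minus imDC, 0.03 for DCreg minus maDC and 0.31 for DCreg minus imDC, and that of the repair genes 0.31, 0.17 and 0.38. Above the median of all peaks were 14 of 23, 23 of 39 and 13 of 25 repair gene peaks in these comparisons, so as a group they lay close to the rest.

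**Figure D5:**
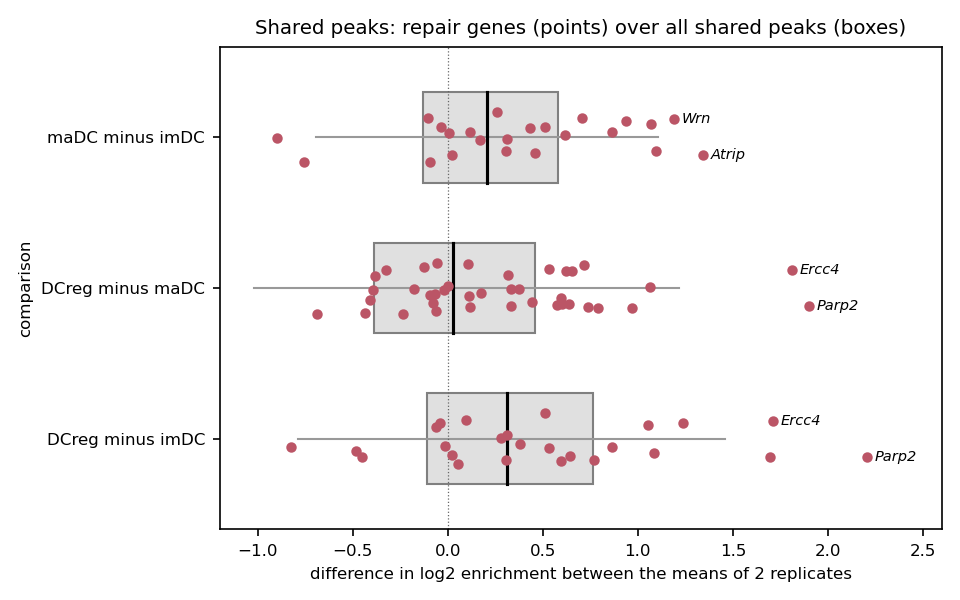
Difference in log2 enrichment (x axis) of the repair gene peaks shared by 2 DC types (points) over all shared peaks (box, middle 50% with the median; line, 5th to 95th percentile) in the 3 comparisons, with the 2 largest repair gene differences named. Parp2 (1.90 and 2.21) and Ercc4 (1.81 and 1.71) lie beyond the lines in both comparisons of DCreg.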

How the data were processed

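The authors deposited 1 peak list per DC type, with the log2 enrichment of IP over input per replicate. By the labels and the study's methods, TopHat2 2.0.14 aligned the reads to mm10, each was extended to 150 bp, and edgeR (version not given in the sources used) compared IP with input on every gene's longest isoform in windows of 100 bp moved by 10 bp. Windows past an FDR of 1% whose log2 enrichment reached 1 in each replicate were merged. Depth is unknown, so weak peaks are the least certain. Replicate columns name no sample and were taken to follow the labels, which was not settled. Of the columns with values per sample, 0 were left unused.

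The 52 genes, their roles and the other gene lists were chosen with earlier results of these data known. All genes with a peak pattern that differs were named, with the 5 strongest peaks per list and the 3 largest differences per direction. Of 40 repair gene transcripts, 35 matched the GRCm38 RefSeq sequence at each listed GGACT within 5 bases. Those of Lig1, Parp1, Parp2, Polh and Xrcc1 did not. Shared peaks overlapped by at least 50% of the shorter, with each peak used once per comparison. They were fitted with limma 3.58.1 (R 4.3.3, eBayes with trend, Benjamini-Hochberg over all shared peaks), tested on simulated data. By the labels, replicate numbers name a shared kit for imDC and maDC (correlation of replicate deviations −0.117) and nothing shared with DCreg (−0.040 and −0.345). Some items withheld for evaluation are not reported here. Tables were handled in Python 3.11.15 with pandas 2.3.3.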

Additional observations from a re-analysis of the deposited data

How the results depend on the processing

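The number of repair genes with a peak depends on the minimum enrichment. With at least 1.5 in both replicates 12, 27 and 28 genes had a peak in imDC, maDC and DCreg, and with at least 2 the counts were 7, 16 and 16. The peaks were then 15, 43 and 48, and 9, 23 and 21. At 1.5, 3 of the 7 genes listed in DCreg alone (Bard1, Chek1 and Palb2) and 4 of the 5 listed in maDC alone remained so. With abutting peaks joined, an alternative chosen after seeing the data, the counts were 28, 62 and 64. Shares of GGACT and of CDS stayed within their intervals under each alternative, and finding genes by transcript gave the same 20, 32 and 34 genes.

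No repair gene peak passed limma in any comparison under any other overlap, filter, centring or variance setting, with the replicate block or with each replicate left out (0 to 0 in all 3 comparisons), except that of Parp2 for DCreg minus imDC with the replicate numbers crossed, a pairing chosen after seeing the data. The count over all shared peaks moved more. For DCreg minus maDC it was 22, against 9 at 90% overlap, 0 without trend, 8 with at least 1.5 in all values, 1 with the replicate block, 4 with all 3 types in 1 fit and 1 to 143 with a replicate left out (143 without replicate 1 of DCreg). For maDC minus imDC it was 107 without replicate 2 of imDC and 0 without any other replicate, and for DCreg minus imDC 0 to 2. With the numbers crossed 1 peak passed for maDC minus imDC and 38 for DCreg minus imDC, 1 of them a repair gene peak. The cause was not tested. With columns centred on their median, the median differences of repair genes were 0.04, 0.16 and 0.04 for maDC minus imDC, DCreg minus maDC and DCreg minus imDC.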
